A study of Mus musculus with 71 samples.

Results

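The cocaine effect on gene expression in the nucleus accumbens (NAc) was compared between abstinence of 1 day and of 28 days, as the interaction of treatment and time point. The NAc is the ventral striatal region where dopamine, raised by cocaine, acts on medium spiny neurons, and drug seeking after withdrawal depends on it. The 24 NAc samples, of 71 in the series, were every cocaine and saline sample of this region and formed 4 groups of 6: saline and cocaine at 1 day, and saline and cocaine at 28 days. All were wild type mice, C57BL/6 in the labels and C57BL/6J and adult in the methods, that had been trained for food, fitted with a jugular catheter and single-housed, and that then worked for intravenous infusions of cocaine or, as controls, of saline. They differed in what was infused and in the days between the last session and sacrifice, during which neither group received drug. The 2 time points were separate mice, and their tables were made separately, so a plain difference between days is not described here. Only the difference between cocaine and saline within a day, and how this difference changed, is reported. The labels do not say that each sample was a separate mouse, so p-values measure the spread between these samples.

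Abstinence from cocaine is known for adaptations that come and go at different times. Glucocorticoid hormone released in stress acts on the glucocorticoid receptor, which enters the nucleus and switches on a well-known group of genes. The circadian clock is a loop in which Clock and Arntl drive transcription of the Per, Cry and related repressor genes through short DNA elements called E-boxes, and it also runs in striatal neurons. Immediate early genes such as Nr4a1 and Fos are induced within minutes of neuronal activity. Each of these groups was followed across both time points below, together with receptor, peptide and cell type genes.

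Between 20971967 and 49700932 reads per sample fell on genes, and 16612 genes had enough reads to be tested. Medium spiny neuron markers were abundant in every group, with a summed level between 4795 and 10425 CPM, the read count of a gene scaled to the library total, the level used throughout. The punches also held cortical excitatory neuron RNA in unequal amounts: the 10 markers summed to 139 to 778 CPM (median 355) after saline and 111 to 1059 CPM (median 314) after cocaine at 1 day, and to 474 to 1173 CPM (median 815) and 279 to 994 CPM (median 461) at 28 days. Blood cell markers (5 genes) reached 395 CPM in saline sample 4 at 28 days, against a median of 104 CPM in its group. Sample numbers given for 28 days are those of the count columns, and differ from the numbers in the labels. All 24 samples carried Y-linked transcripts, Ddx3y being at 31.6 CPM or more, and Xist did not exceed 0.196 CPM, although the methods name mice of both sexes. Fewer cells of a type and less RNA per cell cannot be told apart in such bulk samples.

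The cocaine effect differed between the time points in 3 genes, Plin4, Hif3a and Per2, and in each it was positive at 1 day and lower at 28 days. These are 0.0181% of the genes tested (edgeR's quasi-likelihood test of the interaction, adjusted p under 0.05), and 0 genes had an effect that was higher at 28 days by the same rule. The interaction is the cocaine effect at 28 days minus that at 1 day, both as log2 fold changes, so a negative value means an effect that was lower late in abstinence. Without adjustment, 876 genes had an interaction p under 0.05, with 456 lower at 28 days (2.75% of genes tested) and 420 higher (2.53%). Without cocaine sample 5 or saline sample 4 at 1 day, 849 and 728 genes were higher. The median interaction over all genes was 0.02. In the same fit, 3 genes rose after cocaine at 1 day (0.0181% of genes tested), namely Plin4, Hif3a and Mertk, and 0 genes were called at 28 days, where the smallest adjusted p was 0.536 and 867 genes had an unadjusted p under 0.05 (525 without saline sample 5 at 28 days and 1346 with the cortical marker level as a covariate). DESeq2 called 10 genes for the interaction, all lower at 28 days, 12 at 1 day and 1, Cdh2, at 28 days, and limma-voom called 2, 3 and 0.

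Most of the 876 genes with an unadjusted interaction p under 0.05 had a cocaine effect with such a p at 1 time point alone. Of the 456 lower at 28 days, 148 had an unadjusted cocaine p under 0.05 at 1 day alone, 155 at 28 days alone, 20 at both with opposite signs and 133 at neither. Of the 420 genes higher at 28 days, these numbers were 112, 176, 7 and 125. Effects of opposite sign at the 2 time points were found in 95.8% of the 456 genes and 94.3% of the 420, against 49.9% of all genes, a share that selection on the difference raises. The cocaine effect had an unadjusted p under 0.01 on each of the days, with opposite signs, in 3 genes, Per2, Ahnak and Mtap7, all positive at 1 day and negative at 28 days.

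**Figure D1:**
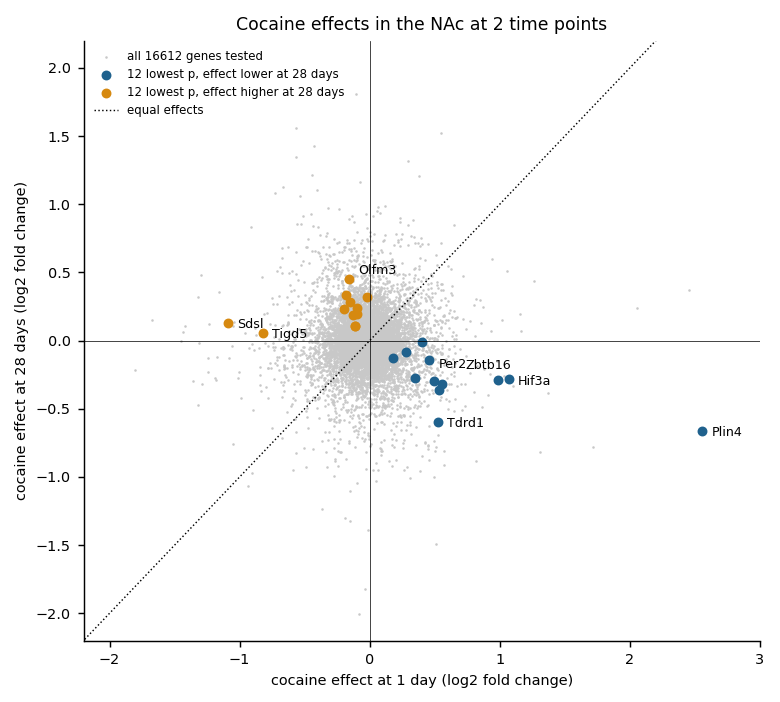
Cocaine effect at 1 day (x axis) and at 28 days (y axis), both as log2 fold change of cocaine against saline, for the 16612 genes tested (grey, 2 of them outside the axes). Blue and orange points are the 12 genes with the smallest interaction p in each direction, and the dotted line marks equal effects. Plin4, Hif3a and Zbtb16 lie far to the right at slightly negative 28-day values.

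Plin4 (perilipin 4, a coat protein of lipid droplets; mm9 chr17:56240014-56249225, minus strand) had the largest interaction of the 3. At 1 day, Plin4 ranged from 2.07 to 4.09 CPM after saline (median 2.72) and from 10.03 to 39.2 CPM after cocaine (median 12.3). All 6 cocaine samples were above every saline sample, and cocaine sample 6 stood above the rest of its group at 39.2 CPM. Levels of Plin4 at 28 days were 3.56 to 10.8 CPM in the saline samples (median 4.74) and 2.38 to 4.97 CPM in the cocaine samples (median 3.86). The groups overlapped at 28 days, with 2 of 6 cocaine samples below all saline samples. The log2 fold change was 2.56 ± 0.33 (SE, n = 6 per group) at 1 day, a 5.895-fold rise, and -0.66 ± 0.32 at 28 days, giving an interaction of -3.22 ± 0.46 with an adjusted p of 0.00477 in edgeR. An exact two-sided permutation test of the treatment labels within each time point, whose null is no cocaine effect at either, gave p = 9.14e-05. Plin4 was called in each of the 24 fits that left out 1 sample, with interactions between -3.35 and -2.78. Its exons overlap Hdgfrp2 on the opposite strand, and the strand of counting is not given in the sources used here. Hdgfrp2 itself had an interaction of 0.03 ± 0.13.

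Hif3a (hypoxia inducible factor 3 alpha, a transcription factor of the hypoxia response; mm9 chr7:17616856-17647776, minus strand) followed the same course. Hif3a lay between 5.897 and 8.55 CPM after saline at 1 day (median 7.104) and between 10.7 and 18.4 CPM after cocaine (median 15.1). Here too all 6 cocaine samples exceeded all saline samples. At 28 days, Hif3a ranged from 5.25 to 9.45 CPM after saline (median 6.99) and from 4.52 to 8.31 CPM after cocaine (median 5.69). These ranges overlapped, with 2 of 6 cocaine samples below all saline samples. The effects were 1.07 ± 0.16 (SE) at 1 day and -0.28 ± 0.17 at 28 days, and the interaction was -1.35 ± 0.23 (edgeR adjusted p = 0.0381, exact permutation p = 4.99e-04). This call was kept in 10 of 24 fits that left out 1 sample (adjusted p from 0.0103 to 0.108). It was lost without cocaine sample 3, 5 or 6 or saline sample 1, 2, 3 or 5 at 1 day, and without cocaine sample 1, 2, 3 or 6 or saline sample 2, 4 or 5 at 28 days.

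Per2 (period circadian clock 2, a repressor of the clock loop; mm9 chr1:93312561-93355907, minus strand) had effects of opposite sign on the 2 days. Levels of Per2 at 1 day were 35.4 to 46.4 CPM in the saline samples (median 41.5) and 47.2 to 70.1 CPM in the cocaine samples (median 56.8). All 6 cocaine samples lay above the saline range. Per2 lay between 43.01 and 65.2 CPM after saline at 28 days (median 62.3) and between 43.4 and 53.2 CPM after cocaine (median 49.3). At 28 days saline sample 1, at 43.0 CPM, was below all cocaine samples, and the other 5 saline samples, at 61.3 CPM or more, were above all 6 cocaine samples. The effects were 0.49 ± 0.10 (SE) and -0.29 ± 0.10, and the interaction was -0.79 ± 0.14 (edgeR adjusted p = 0.0381, exact permutation p = 9.37e-05). Leaving out 1 sample at a time, Per2 remained called without cocaine sample 1, 2 or 3 or saline sample 1 or 4 at 1 day or saline sample 1 at 28 days, and was lost without each of the other 18 (adjusted p from 0.00179 to 0.109). With the blood marker level as a covariate, a setting added after seeing the data, Per2 and Hif3a were both at an adjusted p of 0.0526 in edgeR and Plin4 at 0.00827. With the cortical marker level, also added then, all 3 were called. Per2 was also not called in limma-voom (adjusted p = 0.07002) and with a replicate block by column number (0.106) or label number (0.0994).

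**Figure D2:**
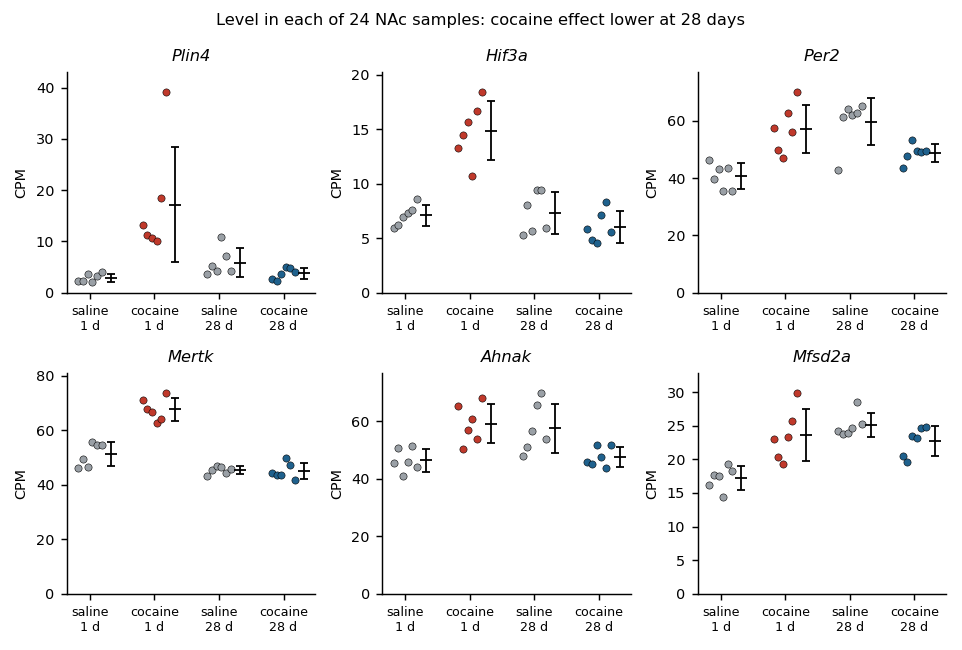
Level in CPM (y axis, linear from 0) of 6 genes in each of the 24 samples, by treatment and days of abstinence. The bars beside the points are mean ± SD (n = 6). In Plin4, Hif3a, Per2 and Mertk all cocaine points at 1 day are above the saline points, and at 28 days the groups overlap.

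Of the 12 genes ranked first among those lower at 28 days, the other 9 did not pass the adjusted threshold in edgeR: Mertk, Ahnak, Mtap7, Mfsd2a, Paqr5, Nostrin, Gpt2, Tdrd1 and Zbtb16. Mertk is a receptor tyrosine kinase by which microglia and astrocytes take up dying cells and synapses. At 1 day, Mertk ranged from 46.2 to 55.8 CPM after saline (median 51.97) and from 62.6 to 73.7 CPM after cocaine (median 67.2). At 28 days, Mertk ranged from 43.1 to 47.05 CPM after saline (median 45.6) and from 41.6 to 49.96 CPM after cocaine (median 44.02). The groups were apart at 1 day, and at 28 days cocaine samples lay on both sides of the saline range. Mertk rose by 0.40 ± 0.06 at 1 day, and its effect at 28 days was -0.01 ± 0.06 (interaction -0.41 ± 0.08, edgeR adjusted p = 0.0984, exact permutation p = 0.00119). It was called for the interaction without saline sample 4 at 1 day or cocaine sample 4 at 28 days.

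Ahnak, a giant scaffold protein beneath the plasma membrane, and Mtap7, a microtubule protein that recruits kinesin, had effects of opposite sign on the 2 days. Ahnak lay between 40.9 and 51.4 CPM after saline at 1 day (median 45.6) and between 50.2 and 68.1 CPM after cocaine (median 58.8). Levels of Ahnak at 28 days were 48.1 to 69.9 CPM in the saline samples (median 55.4) and 43.9 to 51.8 CPM in the cocaine samples (median 46.7). At 1 day 5 of 6 cocaine samples were above all saline samples, and at 28 days 4 of 6 were below all of them. Levels of Mtap7 at 1 day were 86.8 to 99.96 CPM in the saline samples (median 93.5) and 101 to 113 CPM in the cocaine samples (median 108). Mtap7 lay between 99.9 and 113 CPM after saline at 28 days (median 108) and between 92.1 and 104 CPM after cocaine (median 97.4). All 6 cocaine samples of Mtap7 were above the saline range at 1 day, and 4 were below it at 28 days. The interactions were -0.63 ± 0.12 for Ahnak (adjusted p = 0.0984) and -0.31 ± 0.06 for Mtap7 (adjusted p = 0.157), with exact permutation p-values of 8.43e-05 and 3.51e-05.

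Mfsd2a carries lysophosphatidylcholine with docosahexaenoic acid across the blood-brain barrier, Paqr5 is a membrane progestin receptor, Nostrin regulates endothelial nitric oxide synthase and Gpt2 is the mitochondrial alanine aminotransferase. At 1 day, Mfsd2a ranged from 14.3 to 19.3 CPM after saline (median 17.7) and from 19.3 to 29.9 CPM after cocaine (median 23.2). Mfsd2a lay between 23.8 and 28.6 CPM after saline at 28 days (median 24.5) and between 19.6 and 24.9 CPM after cocaine (median 23.3). At 1 day 5 cocaine samples were above all saline samples and at 28 days 4 were below. The effects of Mfsd2a were 0.46 ± 0.09 and -0.14 ± 0.09 (adjusted p of the interaction 0.225). Paqr5 had effects of 0.56 ± 0.14 and -0.32 ± 0.13 (adjusted p 0.225), Nostrin 0.53 ± 0.14 and -0.36 ± 0.14 (0.272), and Gpt2 0.28 ± 0.06 and -0.08 ± 0.06 (0.272). In each of the 3, 5 of 6 cocaine samples were above all saline samples at 1 day, and at 28 days 5, 3 and 4 cocaine samples were below all saline samples. Tdrd1, a Tudor protein known from the piRNA pathway of germ cells, was expressed low, at a group median of 0.881 and 1.501 CPM after saline and cocaine at 1 day and 1.54 and 1.07 CPM at 28 days, where all 6 cocaine samples were below the saline samples (interaction -1.12 ± 0.26, adjusted p = 0.374).

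Genes known to respond to glucocorticoids had the lowest median interaction of 21 gene lists. Of its 25 members, all tested, 11 had an unadjusted interaction p under 0.05, and all 11 were lower at 28 days, against 2.75% of all genes. The median interaction was -0.26, compared with 0.02 over all genes, and 24 of 25 members had a negative value. At 1 day 13 members were higher after cocaine at an unadjusted p under 0.05 (2.25% of all genes) and 0 lower (2.46%), with a median of 0.21. At 28 days 0 were higher (2.53%) and 2 were lower (2.69%), Lcn2 and Gpd1, with a median of -0.11; without saline sample 1 at 28 days, 6 were lower. The list includes Plin4, Hif3a and Mertk, which were known from earlier results of these data. Its rank, counts and medians are therefore not independent evidence of a direction. With cortical or blood marker level as a covariate the count of members lower at 28 days was 11 and 11, and leaving out 1 sample at a time it was 8 to 13. The 8 was without cocaine sample 6 at 1 day (median -0.19), and the 13 without saline sample 4 at 1 day or saline sample 1 at 28 days. Tissue levels of corticosterone and the hour of tissue collection are not given in the sources used here.

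The receptor gene itself, Nr3c1, had effects near 0 on both days (-0.0018 ± 0.06 and 0.01 ± 0.06). Zbtb16 encodes the zinc finger repressor PLZF. Zbtb16 lay between 5.64 and 10.03 CPM after saline at 1 day (median 7.05) and between 9.62 and 23.7 CPM after cocaine (median 11.8). Levels of Zbtb16 at 28 days were 6.01 to 9.73 CPM in the saline samples (median 7.18) and 4.19 to 9.56 CPM in the cocaine samples (median 5.704). At 1 day 4 of 6 cocaine samples were above all saline samples, and at 28 days 4 of 6 were below. The effects were 0.98 ± 0.22 and -0.29 ± 0.22, with an interaction of -1.27 ± 0.31 (adjusted p = 0.489, exact permutation p = 0.00158). Sgk1 is a kinase that controls ion channels and transporters. At 1 day, Sgk1 ranged from 63.02 to 90.2 CPM after saline (median 72.2) and from 72.7 to 153 CPM after cocaine (median 100.3). At 28 days, Sgk1 ranged from 56.7 to 125 CPM after saline (median 79.3) and from 62.1 to 88.5 CPM after cocaine (median 72.7). Only 3 cocaine samples exceeded the saline range at 1 day, and at 28 days the groups overlapped (interaction -0.72 ± 0.25, exact permutation p = 0.0279).

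Sult1a1, a phenol sulfotransferase, had effects of 0.74 ± 0.17 at 1 day, with 5 of 6 cocaine samples above the saline range, and -0.11 ± 0.17 at 28 days. Xdh, which makes uric acid, had 0.54 ± 0.17 and -0.25 ± 0.16, Arrdc2, an arrestin domain protein, 0.44 ± 0.16 and -0.20 ± 0.16, and Map3k6, a stress kinase, 0.46 ± 0.17 and -0.13 ± 0.16. Tsc22d3 (GILZ) had 0.41 ± 0.12 and 0.02 ± 0.12. These members have in common a positive value at 1 day and a value near 0 or below at 28 days. They were named for an unadjusted interaction p under 0.05, all lower at 28 days, and this selection favours such a pattern. Fkbp5, a cochaperone of the receptor and its classical target, was close to that pattern with 0.24 ± 0.09 and -0.02 ± 0.09, but its interaction had a permutation p of 0.116 (exact test). Lcn2, the iron-binding lipocalin 2, differed from the rest: its effect at 1 day was -0.08 ± 0.61, and at 28 days it was -2.003 ± 0.51, where its highest level in any sample was 2.21 CPM. The metallothioneins Mt1 and Mt2, which are also induced by metals, had interactions of -0.02 ± 0.19 and -0.09 ± 0.23.

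Per2 was the 1 clock gene called for the interaction, and 15 of 21 core clock genes had a negative value. Of these 21, all tested, 6 had an unadjusted interaction p under 0.05 and all 6 were lower at 28 days (2.75% of all genes), with a list median of -0.22: Per2, Per3, Tef, Hlf, Bhlhe41 and Gm129 (named Ciart in RefSeq). At 28 days 7 members were lower after cocaine at an unadjusted p under 0.05, these 6 and Dbp, against 2.69% of all genes, and 0 higher (4 lower without saline sample 5 at 28 days). At 1 day 2 were higher, Per2 and Cry1, against 2.25% of all genes, and 0 lower. These counts include Per2, which the study had reported from the same samples, so they are not independent evidence of a direction. The activator Arntl, whose RNA cycles in antiphase to that of the Per genes, had a positive effect at 28 days (0.15 ± 0.08). Its interaction was 0.17 ± 0.12 (exact permutation p = 0.166). The count of 6 was 8 with the cortical and 5 with the blood marker level as a covariate, and 5 to 10 when 1 sample was left out, the 10 without saline sample 1 at 28 days and 9 without cocaine sample 3 at 1 day. The list median went from -0.14 without cocaine sample 6 at 1 day to -0.27 without saline sample 1 at 28 days. That saline sample had the lowest Per2 of its group. The hour at which each mouse was killed was not tested, because the labels do not give it.

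Short promoter sequences of 3 of these genes are shown, picked because they hold elements that clock proteins bind. Each run is the 250 bases before the start of the gene in RefSeq, 5′ to 3′ on the gene's strand, in build GRCm38.p6, while all other positions in this text are mm9. Capitals mark the E-box CACGTG bound by Clock and Arntl (Ciart and Tef) and the D-box TTATGTAA bound by Dbp, Tef and Hlf (Per3).
Ciart, chr3:95882229-95882478, minus strand: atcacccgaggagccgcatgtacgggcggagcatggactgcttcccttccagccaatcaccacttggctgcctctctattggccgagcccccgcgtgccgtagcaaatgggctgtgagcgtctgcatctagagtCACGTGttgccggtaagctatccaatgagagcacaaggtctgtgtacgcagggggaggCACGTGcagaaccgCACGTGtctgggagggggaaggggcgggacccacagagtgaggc
Tef, chr15:81811164-81811413, plus strand: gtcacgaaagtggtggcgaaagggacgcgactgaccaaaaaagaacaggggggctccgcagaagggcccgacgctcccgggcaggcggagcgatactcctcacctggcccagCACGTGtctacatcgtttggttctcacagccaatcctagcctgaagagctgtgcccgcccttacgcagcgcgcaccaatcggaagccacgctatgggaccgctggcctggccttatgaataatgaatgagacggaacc
Per3, chr4:151044666-151044915, minus strand: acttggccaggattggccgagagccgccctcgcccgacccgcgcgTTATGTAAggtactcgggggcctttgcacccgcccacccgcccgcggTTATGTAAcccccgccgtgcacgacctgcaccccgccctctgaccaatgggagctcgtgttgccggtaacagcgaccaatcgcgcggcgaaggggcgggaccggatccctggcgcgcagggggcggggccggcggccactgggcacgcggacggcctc

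Ciart holds 3 E-boxes, 116, 58 and 44 bases before its start, Tef 1 at 138 bases in this promoter, and Per3 holds 2 D-boxes at 205 and 158 bases. Of all 32851 RefSeq promoter windows of this length, 6.02% hold CACGTG and 0.819% hold TTATGTAA on either strand. Among the 21 clock genes, 18 had windows, 27 in all, and CACGTG was in 6 windows, of Bhlhe41, Ciart, Cry1, Per1 and Tef. TTATGTAA was in 1 window, of Per3. Per2, Bhlhe40 and Csnk1d had no entry. Among 31 windows of 20 glucocorticoid-responsive genes, AGAACA, part of the receptor's element, was in 7, of Fam107a, Sgk1, Sult1a1 and Tsc22d3, and in 16.1% of all windows. A match describes the letters and not a bound site.

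Ciart, a repressor of the clock activators, is one of the sequences above. Gm129 lay between 17.7 and 25.2 CPM after saline at 1 day (median 23.2) and between 21.4 and 29.8 CPM after cocaine (median 25.1). At 28 days, Gm129 ranged from 13.3 to 36.1 CPM after saline (median 19.4) and from 9.72 to 21.8 CPM after cocaine (median 14.6). At 1 day 3 of 6 cocaine samples were above the saline range and at 28 days 2 of 6 were below it. Its interaction was -0.71 ± 0.25 (adjusted p = 0.846, exact permutation p = 0.01702). Levels of Per3 at 1 day were 57.1 to 84.4 CPM in the saline samples (median 67.9) and 70.8 to 87.2 CPM in the cocaine samples (median 77.5). At 28 days, Per3 ranged from 59.1 to 80.95 CPM after saline (median 67.6) and from 50.4 to 73.04 CPM after cocaine (median 59.3). At 28 days 3 cocaine samples of Per3, a further period gene, were below all saline samples (interaction -0.39 ± 0.13, exact permutation p = 0.00736).

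At 1 day, Tef ranged from 602 to 662 CPM after saline (median 622) and from 590.2 to 754 CPM after cocaine (median 667). Levels of Tef at 28 days were 605 to 823 CPM in the saline samples (median 733) and 599.9 to 679.8 CPM in the cocaine samples (median 641). Tef is an output factor of the clock that binds D-boxes, and its 2 groups overlapped on both days (effects 0.11 ± 0.07 and -0.17 ± 0.07, exact permutation p of the interaction 0.00688). Hlf, a related factor, had effects of 0.09 ± 0.11 and -0.23 ± 0.11, and Bhlhe41, a repressor that binds E-boxes, 0.07 ± 0.09 and -0.24 ± 0.09. Dbp, the strongest cycling output gene in many tissues, was not above saline at 1 day (-0.07 ± 0.12), so its interaction was -0.25 ± 0.17 despite -0.32 ± 0.12 at 28 days. Per1 and Nr1d1 had interactions of -0.23 ± 0.17 and 0.05 ± 0.16, and Clock 0.02 ± 0.12.

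Markers of brain endothelium, the cells of the blood-brain barrier, had a negative median interaction, and no member passed the adjusted threshold. Of 13 markers, 7 had an unadjusted interaction p under 0.05, all lower at 28 days, against 2.75% of all genes (median -0.27): the transporters Slco1a4, Abcb1a, Abcg2, Slc2a1 and Mfsd2a, the adhesion protein Esam and the surface antigen Ly6c1. Among the other markers, interactions were -0.03 ± 0.12 for Pecam1, -0.01 ± 0.12 for Tek, 0.07 ± 0.12 for Cdh5 and -0.10 ± 0.20 for Kdr. Cldn5 and Flt1 also had no unadjusted interaction p under 0.05, and 12 of the 13 markers had a negative value. The summed level of the 13 markers was 349.5 to 429 CPM (median 398) after saline and 354 to 479 CPM (median 406) after cocaine at 1 day, and 468 to 616 CPM (median 515) and 450.4 to 506 CPM (median 473) at 28 days. The count of 7 was 6 with the cortical and 7 with the blood marker level as a covariate, and 5 to 7 when 1 sample was left out. These genes were listed as cell type markers and are named here after their values were seen.

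Ly6c1 and Abcg2, an efflux pump of the barrier, had the lowest interactions after Mfsd2a. At 1 day, Ly6c1 ranged from 21.6 to 29.8 CPM after saline (median 24.98) and from 24.3 to 35.8 CPM after cocaine (median 28.9). Ly6c1 lay between 27.4 and 42.2 CPM after saline at 28 days (median 33.1) and between 25.7 and 30.1 CPM after cocaine (median 26.7). At 28 days 4 of 6 cocaine samples were below all saline samples. Levels of Abcg2 at 1 day were 13.5 to 19.1 CPM in the saline samples (median 16.7) and 15.4 to 24.4 CPM in the cocaine samples (median 20.2). At 28 days, Abcg2 ranged from 11.5 to 18.6 CPM after saline (median 14.5) and from 11.0 to 14.5 CPM after cocaine (median 11.9). At 1 day 5 of 6 cocaine samples were above the saline range, and at 28 days 3 were below it (interaction -0.54 ± 0.16, exact permutation p = 0.00557). Slc2a1, the glucose transporter, had effects of 0.22 ± 0.13 and -0.18 ± 0.13, and Esam 0.05 ± 0.10 and -0.33 ± 0.09.

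**Figure D3:**
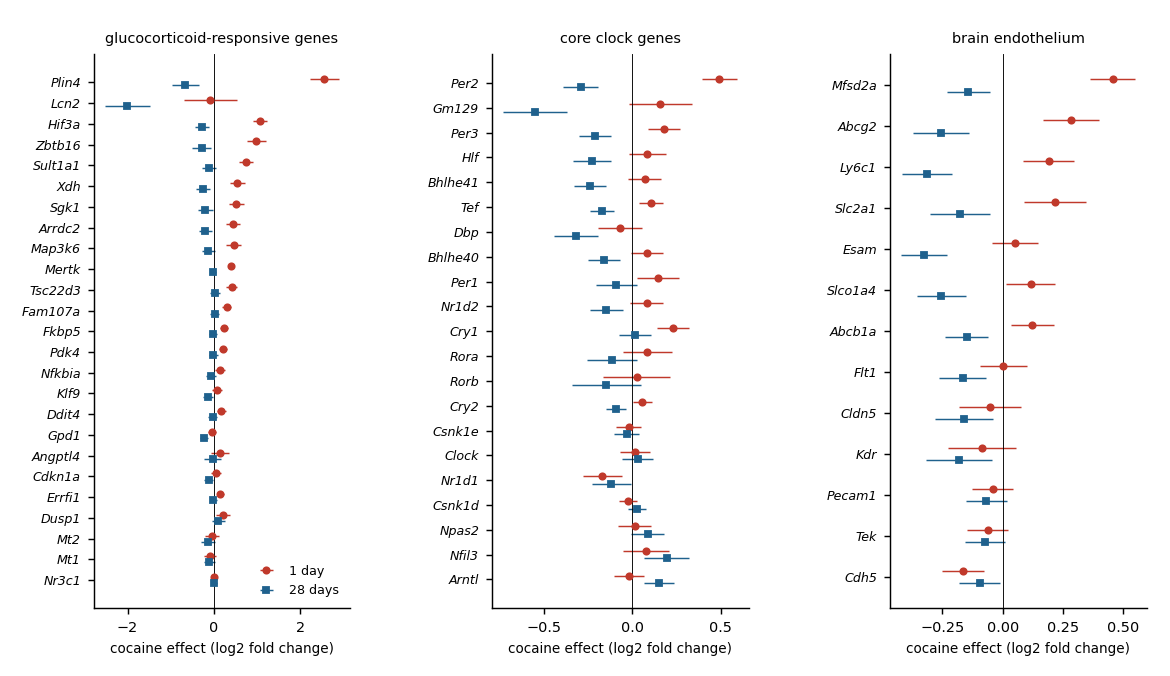
Cocaine effect (x axis, log2 fold change with SE) of each gene of 3 lists, at 1 day (red circles) and 28 days (blue squares), ordered by the interaction; x axes differ in scale. In the top 7 endothelial genes and the top 6 clock genes the red points are above 0 and the blue points below 0, and Plin4 stands far to the right of all other genes at 1 day.

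No gene passed the adjusted threshold in the other direction, an effect higher at 28 days. The 12 with the smallest p were Tceal1, Cdh2, Sdsl, Tnfrsf21, Olfm3, Vta1, Pja1, Cdkl1, Atic, Tigd5, 6430527G18Rik and Tspan6. Tceal1, a nuclear protein related to elongation factor TFIIS, came first. Tceal1 lay between 19.5 and 23.1 CPM after saline at 1 day (median 22.2) and between 17.7 and 21.8 CPM after cocaine (median 18.5). Levels of Tceal1 at 28 days were 14.4 to 18.3 CPM in the saline samples (median 15.6) and 16.8 to 20.4 CPM in the cocaine samples (median 19.01). At 1 day 4 of 6 cocaine samples were below all saline samples, and at 28 days 4 of 6 were above them. The interaction was 0.43 ± 0.10 (edgeR adjusted p = 0.374, exact permutation p = 3.49e-04).

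Cdh2 (N-cadherin, an adhesion molecule of synapses) had its effect at 28 days. At 1 day, Cdh2 ranged from 100.3 to 115 CPM after saline (median 104) and from 96.4 to 117 CPM after cocaine (median 100.3). At 28 days, Cdh2 ranged from 64.7 to 82.5 CPM after saline (median 75.7) and from 83.2 to 101 CPM after cocaine (median 96.5). All 6 cocaine samples exceeded the saline samples at 28 days, while the groups overlapped at 1 day. The effects were -0.02 ± 0.06 and 0.32 ± 0.06 (interaction 0.34 ± 0.09, adjusted p = 0.645), and Cdh2 was the gene DESeq2 called at 28 days. Pja1, a ubiquitin ligase, also had all 6 cocaine samples above saline at 28 days, with effects of -0.13 ± 0.06 and 0.19 ± 0.06. Tnfrsf21 (death receptor 6, which acts in axon pruning) had -0.15 ± 0.08 and 0.28 ± 0.08, and Olfm3, a secreted olfactomedin, -0.16 ± 0.12 and 0.45 ± 0.12.

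Sdsl and Tigd5 were named by their 1-day effects, -1.09 ± 0.27 and -0.82 ± 0.21, when their group medians did not exceed 0.812 CPM. All 6 cocaine samples were below the saline mean at 1 day in both. Vta1 of the endosomal sorting machinery, with effects of -0.11 ± 0.04 and 0.10 ± 0.04, and the purine synthesis enzyme Atic, with -0.09 ± 0.06 and 0.20 ± 0.06, had small interactions and narrow groups. The kinase Cdkl1 and the tetraspanin Tspan6 had interactions of 0.34 ± 0.10 and 0.51 ± 0.15. All 12 genes had a negative effect at 1 day and a positive one at 28 days, a pattern that ranking on the difference favours.

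No gene of the transmitter system lists passed the adjusted threshold for the interaction. Of 19 peptide precursors and opioid receptors tested, 2, Cartpt and Nts, had an unadjusted interaction p under 0.05, both higher at 28 days, against 2.53% of all genes, and the list's median was 0.16. Cartpt encodes the cocaine- and amphetamine-regulated transcript peptide. Cartpt lay between 14.3 and 29.6 CPM after saline at 1 day (median 24.2) and between 15.7 and 31.8 CPM after cocaine (median 22.3). At 28 days, Cartpt ranged from 14.1 to 30.9 CPM after saline (median 16.1) and from 24.6 to 37.5 CPM after cocaine (median 35.7). The groups overlapped at 1 day, and at 28 days 4 of 6 cocaine samples were above all saline samples. The effects were 0.02 ± 0.20 and 0.73 ± 0.20, with an interaction of 0.71 ± 0.29 (edgeR adjusted p = 0.928, exact permutation p = 0.05004). Cocaine sample levels of Nts, neurotensin, which modulates dopamine, had a median of 25.1 CPM at 1 day against 27.97 CPM in saline samples, and 23.8 against 18.8 CPM at 28 days, with overlapping groups on both days (interaction 0.83 ± 0.26, exact permutation p = 0.00775). Pdyn, Tac1, Npy and Oprm1 had interactions between -0.14 and 0.26.

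The Cartpt promoter is shown because it holds a cAMP response element, TGACGTCA, through which CREB acts, in capitals 112 bases before the start (GRCm38.p6, 5′ to 3′ on the gene's strand).
Cartpt, chr13:99900684-99900933, minus strand: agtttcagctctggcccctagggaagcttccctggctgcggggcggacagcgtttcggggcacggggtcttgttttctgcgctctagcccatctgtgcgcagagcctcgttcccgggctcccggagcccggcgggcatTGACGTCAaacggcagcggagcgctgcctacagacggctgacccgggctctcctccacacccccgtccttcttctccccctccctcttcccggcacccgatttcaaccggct

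These letters are in 1.55% of all promoter windows.

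Drd3, the dopamine D3 receptor that is enriched in the NAc, was the single member of 21 dopamine genes tested with an unadjusted interaction p under 0.05. It was higher at 28 days, as were 2.53% of all genes by that rule. At 1 day, Drd3 ranged from 4.498 to 9.21 CPM after saline (median 6.301) and from 4.28 to 8.19 CPM after cocaine (median 6.15). Levels of Drd3 at 28 days were 3.32 to 6.01 CPM in the saline samples (median 4.52) and 5.74 to 8.55 CPM in the cocaine samples (median 6.57). At 28 days 5 of 6 cocaine samples were above all saline samples. Its effects were -0.17 ± 0.18 and 0.56 ± 0.18 (interaction 0.74 ± 0.25, adjusted p = 0.846, exact permutation p = 0.0141). Drd2, Ppp1r1b and Th had interactions of -0.14 ± 0.20, -0.21 ± 0.21 and -0.23 ± 0.26.

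Of 14 GABA-A subunits tested, Gabrg1 had a higher effect at 28 days at an unadjusted p under 0.05 (interaction 0.40 ± 0.18), and Gabrr2, a rho subunit, a lower one (-1.01 ± 0.30, exact permutation p = 0.00444). Of all genes, 2.53% were higher and 2.75% lower by that rule. In Gabrr2 all 6 cocaine samples were above the saline samples at 1 day, at a median of 1.29 against 0.752 CPM. Among 28 ionotropic glutamate receptor genes, Grik4 (0.38 ± 0.18) and Grin3a (0.51 ± 0.24) had an unadjusted p under 0.05, both higher at 28 days. This compares with 2.53% of all genes, and 0 of 10 metabotropic receptors had such a p. Htr4, a serotonin receptor that raises cAMP, had an interaction of 0.84 ± 0.30 (exact permutation p = 0.0182), the lowest p of 12 serotonin receptors. None of these receptor genes passed the adjusted threshold, and with 1 sample left out the higher counts were 0 to 3 for both the ionotropic glutamate and the GABA-A list.

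Nr4a1, the nuclear receptor that the study followed, did not have an interaction beyond its spread. At 1 day, Nr4a1 ranged from 21.8 to 38.7 CPM after saline (median 26.1) and from 32.9 to 48.3 CPM after cocaine (median 38.4). At 28 days, Nr4a1 ranged from 41.96 to 112 CPM after saline (median 57.3) and from 31.9 to 128 CPM after cocaine (median 75.4). At 1 day 3 of 6 cocaine samples were above the saline range, and at 28 days both groups spread widely and overlapped. The effects were 0.45 ± 0.26 and 0.13 ± 0.26 (SE), with an interaction of -0.32 ± 0.37 and a 95% interval from -1.04 to 0.40 (edgeR adjusted p = 0.999, exact permutation p = 0.363). Nr4a3 is a related receptor of the same family. Levels of Nr4a3 at 1 day were 8.23 to 16.4 CPM in the saline samples (median 11.5) and 13.6 to 28.7 CPM in the cocaine samples (median 20.1). Nr4a3 lay between 10.8 and 22.7 CPM after saline at 28 days (median 14.8) and between 9.85 and 26.96 CPM after cocaine (median 13.6). At 1 day 5 of 6 cocaine samples were above the saline range (effect 0.81 ± 0.23), and at 28 days the effect was 0.03 ± 0.23 (interaction -0.78 ± 0.33, adjusted p = 0.932, exact permutation p = 0.0458).

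**Figure D4:**
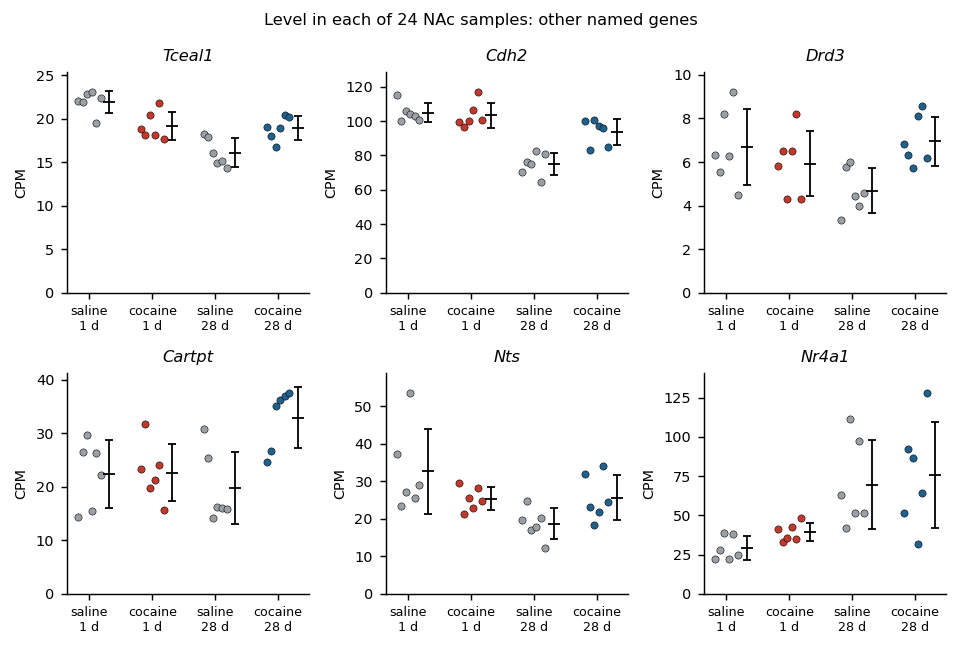
Level in CPM (y axis, linear from 0) of Tceal1, Cdh2, Drd3, Cartpt, Nts and Nr4a1 in the 24 samples, with mean ± SD (n = 6) beside the points. At 28 days all cocaine points of Cdh2 are above the saline points, and both groups of Nr4a1 at 28 days spread widely.

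Nr4a3 was the 1 member of 29 immediate early genes tested with an unadjusted interaction p under 0.05, a share near the 2.75% of all genes, and the list's median was -0.13. This count was 0 without cocaine sample 6 at 1 day or saline sample 3 at 28 days, 2 without cocaine sample 3 at either time point or saline sample 2 at 28 days, and 3 without cocaine sample 6 at 28 days. At 1 day 4 members, Fos, Egr2, Egr4 and Nr4a3, were higher after cocaine at an unadjusted p under 0.05, against 2.25% of all genes, with a list median of 0.30. The 4 were 1 without saline sample 2, 2 without cocaine sample 2 or 6 or saline sample 4, and 7 without cocaine sample 3 at 1 day. At 28 days 0 were higher, with a median of 0.06. Egr2 had effects of 0.86 ± 0.41 and 0.13 ± 0.36, and Egr4 0.40 ± 0.17 and -0.02 ± 0.15. Egr1 had an interaction of -0.32 ± 0.25, and Nr4a2 one of -1.29 ± 1.08. None of 13 ERK feedback genes had an unadjusted interaction p under 0.05. Dusp4, a phosphatase of that list, had a positive effect on both days (0.55 ± 0.18 and 0.37 ± 0.17). Cbl, a ubiquitin ligase, also had positive effects on both days (0.20 ± 0.09 and 0.12 ± 0.09), with an interaction of -0.08 ± 0.13 and a 95% interval from -0.33 to 0.17.

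Fmo2, Kirrel2 and Ccdc141, which the study had picked for PCR from its early comparison, and Raver2, for which it lists primers, had negative interactions. Fmo2, a flavin monooxygenase, had 5 of 6 cocaine samples above the saline range at 1 day and overlapping groups at 28 days (effects 0.84 ± 0.27 and -0.60 ± 0.27, interaction -1.44 ± 0.38, exact permutation p = 0.00559). Kirrel2, an adhesion protein of the immunoglobulin family, Raver2, an RNA-binding protein, and Ccdc141, which acts in neuronal migration, each had all 6 cocaine samples above all saline samples at 1 day. Their effects at 1 day were 0.49 ± 0.12, 0.32 ± 0.08 and 0.31 ± 0.07, and those at 28 days -0.13 ± 0.11, -0.10 ± 0.08 and 0.02 ± 0.07. The adjusted p-values of their interactions were 0.679, 0.6802 and 0.846 in edgeR. Exons of Raver2 overlap Jak1 on the opposite strand, whose interaction was 0.06 ± 0.10. Since Fmo2, Kirrel2 and Ccdc141 were picked on the same samples, their direction after cocaine in these samples is not independent evidence. The study reports that PCR in a separate cohort of mice bore out the genes it picked from its early and late comparisons. By PCR in separate mice, it also reports Per2 activated early and repressed late in abstinence. By RNA-seq and by that PCR, it reports Nr4a1 and Cbl activated at 1 day and Cartpt at 28 days. Its RNA-seq comparisons, made within each time point, had no significant change of Nr4a1 or Cbl at 28 days. In the fit used here, neither Nr4a1 nor Cbl had an interaction beyond its spread. Those PCR measurements were not part of the data used here.

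The genes picked for PCR from the late comparison were E2f1, Mark2, Ndn and a Robo gene whose family member is not named. E2f1, a cell cycle factor, had effects of -0.14 ± 0.12 and -0.38 ± 0.11, Mark2, a polarity kinase, -0.04 ± 0.07 and -0.15 ± 0.07, and Ndn (necdin) 0.25 ± 0.21 and 0.57 ± 0.21, and none of these had an unadjusted interaction p under 0.05. In Mark2 all 6 cocaine samples were below all saline samples at 28 days. The memory list was chosen by the study on these samples. Of its 8 genes Sorcs3, a sorting receptor for glutamate receptors, had all 6 cocaine samples above saline at 28 days (effects 0.0028 ± 0.08 and 0.29 ± 0.08), and Glp1r, the GLP-1 receptor, had -0.14 ± 0.25 and 0.66 ± 0.24. Hrh3, the histamine autoreceptor, had 0.09 ± 0.10 and -0.26 ± 0.10. These 3 had an unadjusted interaction p under 0.05, 2 higher and 1 lower (1 higher without cocaine sample 1 or 6 or saline sample 4 or 5 at 1 day, or cocaine sample 5 or saline sample 4 at 28 days), and the median of the 8 was -0.13. Of all genes, 2.53% were higher and 2.75% lower by that rule. Slc8a2, Itga5, Shank3, Slc24a2 and B4galt2 had interactions between -0.29 and -0.07.

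Axon guidance genes had positive list medians, 0.16 for 27 Slit, Robo, netrin and ephrin genes and 0.12 for 31 semaphorins, plexins and neuropilins, against 0.02 over all genes. In the first list 3, Slit2, Ntn1 and Unc5b, were higher at an unadjusted p under 0.05 (2.53% of all genes) and 1, Robo3, lower (2.75%), and in the second 2, Sema4c and Nrp2, were higher (4 without cocaine sample 2 at 28 days or saline sample 4 at 1 day). Slit2, a ligand of Robo receptors, had effects of 0.03 ± 0.19 and 0.59 ± 0.19, and the netrin ligand Ntn1 -0.16 ± 0.14 and 0.37 ± 0.14. Unc5b, a netrin receptor, had -0.32 ± 0.09 at 1 day and -0.0048 ± 0.09 at 28 days. Robo3, at 3.24 CPM or less in the group medians, had 0.31 ± 0.28 and -1.01 ± 0.27 (exact permutation p = 0.0102), with 5 of 6 cocaine samples below saline at 28 days. Its family members Robo1 and Robo2 had interactions of 0.33 ± 0.16 and -0.22 ± 0.23. Of 15 perineuronal net genes, Tnc (tenascin C) alone was higher at such a p (0.44 ± 0.19), against 2.53% of all genes.

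In the MHC class I and interferon list, genes with an unadjusted p under 0.05 were lower after cocaine on both days. Of 24 MHC class I and interferon genes tested, 6 were lower after cocaine at 1 day and 9 at 28 days at an unadjusted p under 0.05, against 2.46% and 2.69% of all genes, with 0 higher, and the median interaction was 0.00287. H2-D1, Ifitm3, Irf7 and Gbp3 were in both sets. The 6 were 2 without saline sample 6 at 1 day, and the 9 were 4 or 5 without cocaine sample 2 or 5 or saline sample 2 or 5 at 28 days. Stat2 and Irf9, 2 parts of the factor that interferon activates, had interactions of -0.23 ± 0.09 and -0.19 ± 0.09, the list's 2 members with an unadjusted interaction p under 0.05 (0 without cocaine sample 6 at 1 day). Both were lower at 28 days, as were 2.75% of all genes by that rule. Exons of Irf9 overlap Rnf31 on the same strand. Of 28 heat shock proteins and cochaperones, 9 were higher after cocaine at 28 days at an unadjusted p under 0.05, against 2.53% of all genes, and 0 lower (median 0.14). At 1 day 1 was higher, a share near the 2.25% of all genes (median 0.03). The 9 were 1 without cocaine sample 3 or saline sample 2 or 5 at 28 days, 4 or 5 without cocaine sample 1 or 2 or saline sample 1. For their interaction Stip1 alone had an unadjusted p under 0.05 (0.25 ± 0.11), against 2.53% of all genes higher at 28 days by that rule. That count was 6 without cocaine sample 6 at 1 day, and Hsp90aa1, Hsp90ab1 and Hspa8 had interactions of 0.24 ± 0.14, 0.15 ± 0.09 and 0.17 ± 0.13.

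Other lists had no member with an unadjusted interaction p under 0.05: 88 oxidative phosphorylation genes (median 0.02), 79 cytosolic ribosomal protein genes (-0.03), 34 histone and DNA modifying enzymes (median -0.0021) and 7 neurotrophin and Trk genes (0.08). Leaving out 1 sample gave up to 4 oxidative phosphorylation genes higher at 28 days (4 without saline sample 4 and 3 without cocaine sample 6 at 1 day), up to 2 ribosomal protein genes lower (without cocaine sample 6 at 1 day or at 28 days), and up to 3 histone and DNA modifying enzymes lower (without cocaine sample 4 at 28 days). Of 20 postsynaptic scaffold genes Syne1 alone did (-0.21 ± 0.10). Of all genes, 2.75% were lower and 2.53% higher by that rule. Markers of medium spiny neurons, microglia and oligodendrocyte precursors had medians of -0.07, 0.03 and 0.03. Cortical excitatory markers had a median interaction of -0.61, 1 of 10, Nrgn, at an unadjusted p under 0.05, and blood markers one of -0.59 with 0 of 5. The other 7 marker lists (cholinergic neurons, GABA interneurons, astrocytes, myelinating oligodendrocytes, meningeal fibroblasts, choroid plexus and ependyma) each had 0 or 1 such member. At 28 days all 5 blood markers were lower after cocaine at an unadjusted p under 0.05 (median -0.82), but 0 were without saline sample 4, which stood apart, or without cocaine sample 6 at 28 days. The part of these tissue differences in the results above was not tested beyond the covariates given. Among the genes named above, exons of Sult1a1, Tef, Dbp, Nr1d1, Slc2a1, Vta1, Cdkl1, Hrh3 and Tnc also overlap a gene on the opposite strand.

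**Figure D5:**
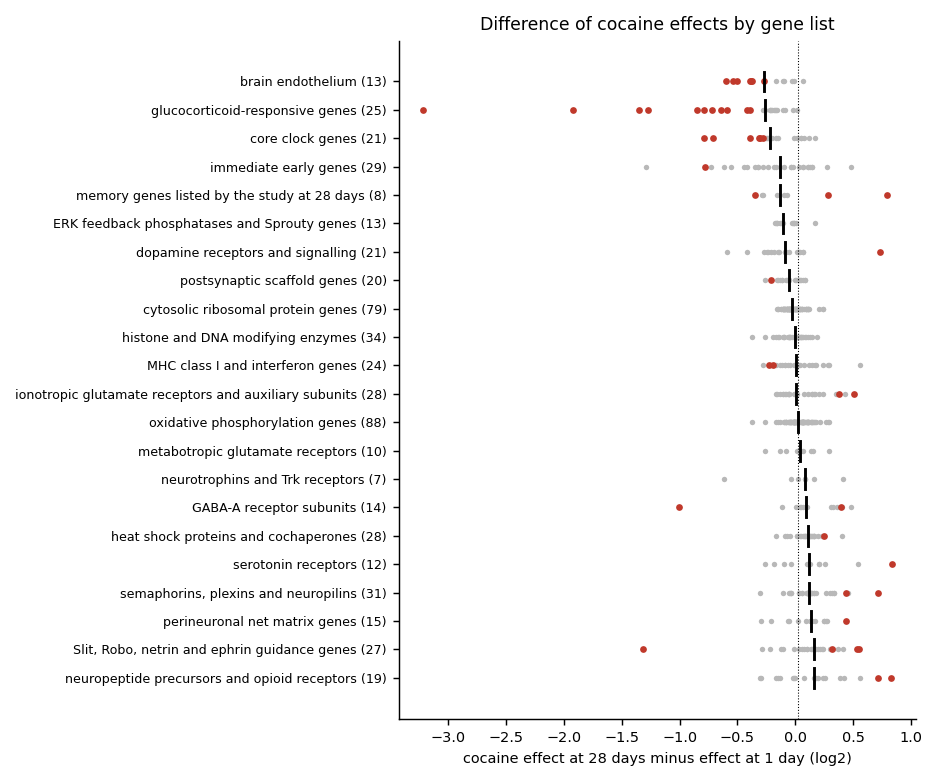
Interaction (x axis, cocaine effect at 28 days minus that at 1 day, log2) of each tested gene of the 21 lists and of brain endothelium, with the number of genes in brackets. Red points have an unadjusted p under 0.05, black bars are list medians and the dotted line is the median of all genes, 0.02. Of the lists plotted, endothelium, glucocorticoid-responsive and clock genes have the lowest medians. Cortical excitatory and blood markers, not plotted, had lower ones, -0.61 and -0.59.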

How the data were processed

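RNA-seq libraries of nucleus accumbens punches in 24 samples (6 per group) were sequenced by the authors, who deposited raw read counts per gene in a table for each time point. The submitters' processing notes name STAR 2.4.1d, DESeq2, edgeR and build mm9, and the strand used in counting is not given in the sources used here. Columns of the authors' own fold changes and p-values were not used, nor were 6 columns of per-sample values that belong to no sample analysed here. At 28 days the columns give the group of a sample but not its labelled replicate, so the sample numbers used for 28 days are column numbers.

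Both tables were joined on gene identifier (37681 genes), and 16612 genes passed filterByExpr (minimum count 10, minimum total 15). One edgeR quasi-likelihood model (edgeR 4.0.16, R 4.3.3, TMM scaling) with 4 group means gave the cocaine effect at each time point and their difference, with Benjamini-Hochberg adjustment over all genes. A standard error is the size of the log2 fold change divided by the square root of its F statistic. Levels are CPM with TMM scaling. Single genes were also tested by an exact two-sided permutation test on log2(CPM + 0.5), over 924 arrangements within a time point and 853776 over both, and the smallest p for 6 against 6 samples is 0.00216. On simulated counts with 200 changed genes, the test of the interaction recovered 40% of 1.5-fold changes (16471 genes) and 70.5% of 2-fold changes (16472 genes), with 5 and 12 false calls. The simulated counts had 1 mean per gene apart from the changes, the spread estimated for each gene, and no tissue differences shared across genes.

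The genes and lists were chosen with earlier results of these data known. Named genes are the 12 with the smallest interaction p in each direction at a mean of 1 CPM or more, genes that the study named, Hif3a and Plin4, genes with an unadjusted p under 0.01 at both days and opposite signs, and in each list the members with the smallest p or an unadjusted p under 0.05. Genes named for calls by DESeq2, and endothelial members, were chosen after their values were seen. Alternatives were DESeq2 1.42.0, limma-voom (limma 3.58.1), DESeq2 size factors, no filter, robust dispersion, replicate blocks, other thresholds and leaving out each sample. Cortical or blood marker level as a covariate was chosen after seeing the data. Promoter windows came from RefSeq on GRCm38.p6. Of the genes first placed in the lists, 2 are not reported here and were left out of the list counts.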

Additional observations from a re-analysis of the deposited data

Results flagged for a closer look

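The test of the difference between the cocaine effects passed the adjusted threshold in 3 genes: the interaction (log2) was -3.22 for Plin4, -1.35 for Hif3a and -0.79 for Per2.

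Single samples lay far from the rest of their group in 8 of 152 gene and group combinations examined (38 genes), where chance gives about 1 in 20. Plin4 was at 39.2 CPM in cocaine sample 6 at 1 day, next to 18.4 CPM in the second highest. The same sample held 4.46 CPM of Robo3 (next 2.35) and 10.4 CPM of E2f1 (next 7.87). Per2 was at 43.0 CPM in saline sample 1 at 28 days, and the next lowest sample was at 61.3 CPM. Saline sample 5 at 28 days was highest in Mfsd2a, at 28.6 CPM (next 25.2), and in Tigd5, at 4.40 CPM (next 3.67). Tceal1 was lowest in saline sample 5 at 1 day, at 19.5 CPM (next 21.9), and Robo3 was highest in cocaine sample 2 at 28 days, at 2.38 CPM (next 1.48).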

How the results depend on the processing

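With other scaling, no filter on low counts, robust dispersion, a minimum log2 difference of 0.25 or the cortical marker level as a covariate, the interaction called 3 genes again, Plin4, Hif3a and Per2. DESeq2 called 10 genes and limma-voom 2, and an adjusted p under 0.25 gave 8. The blood marker level as a covariate, added after seeing the data, left 1, Plin4. Without 1 sample at a time the count was 1 to 5. At 1 day, DESeq2 called 12 genes, an adjusted p under 0.25 gave 8, and leaving out 1 sample gave 3 to 5, with Plin4, Hif3a and Mertk in each. At 28 days DESeq2 called 1 gene and edgeR 0. No result reversed its direction, and the causes of these differences were not tested.

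A replicate block by the label number at 1 day left 1 call for the interaction, Plin4 (adjusted p of 0.0838 for Hif3a and 0.0994 for Per2), and a replicate block by the column number called 3, Plin4, Hif3a and Zbtb16. Deviations of same-numbered samples correlated between -0.515 and 0.646 at 1 day and between -0.168 and 0.246 at 28 days. In 2 of 6 pairs at each time point a sample correlated best with its own number, so the numbers were not taken as pairs.

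With 6 samples per group, simulated 1.5-fold changes of the interaction were recovered in 40% of cases, in counts without tissue differences shared across genes.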
